A study of Mus musculus with 8 samples.

Results

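Histones are the proteins that DNA is wound around, and their genes fall into classes with different transcripts. The set described here is every protein-coding row of the gene table whose symbol is that of an H1, H2A, H2B, H3 or H4 gene of the replication-dependent nomenclature, or H2az1, H2az2, H3f3a or H3f3b. The rule found 73 of 46635 rows, of which 22186 are protein-coding. Of the 73, 61 are replication-dependent genes, 51 on chromosome 13 and 10 on chromosome 3. A further 6 are replication-independent variants, namely H2az1, H2az2, H3f3a, H3f3b, H1f0 and H1f10. The last 6 are germ-cell genes (H1f6, H1f7, H1f8, H1f9, H2ac1 and H2bc1). The rule used names and no measured value.

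The libraries came from wild-type mice of 2 ages, 4 from fetuses on embryonic day E17.5 and 4 taken 14 days after birth (P14). In each, the small intestine was treated with EDTA to take off the epithelium, and RNA of the remaining mesenchyme was sequenced. Nothing in the labels tells separate animals from pools or repeat preparations, and the p-values below therefore describe the spread of these 8 samples, part of which may be technical.

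Replication-dependent histone genes are switched on as DNA is copied in S phase. Their transcripts normally carry no introns and no poly(A) tail, and end just past a conserved stem-loop that the stem-loop binding protein Slbp holds. Variant histone genes are transcribed through the cell cycle and give polyadenylated transcripts, so non-dividing cells can replace histones. Transcripts of H2az1, H2az2, H3f3a and H3f3b are spliced. The H1f0 and H1f10 genes span no more genome than their exon bases, 2293 and 1062. Replication-dependent genes can also give polyadenylated transcripts, which are known from differentiated cells. The sources used here do not state how RNA was selected before library making. A library made from poly(A) RNA would hold few transcripts that end at the stem-loop, so the levels below are those of the libraries and not of all histone transcripts in the tissue.

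The stem-loops of the members are shown first because they separate the classes. They were read from GENCODE M21 transcripts, 5′ to 3′, with the paired bases of the stem in capitals and the loop in lower case. Shown are 4 genes that were higher or lower at P14 below (H1f2, H2bc8, H4c8, H3c3), the most abundant H4 gene (H4c9) and H4c11.
H1f2: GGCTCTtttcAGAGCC
H2bc8: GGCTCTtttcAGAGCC
H3c3: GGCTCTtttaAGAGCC
H4c8: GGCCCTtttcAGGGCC
H4c9: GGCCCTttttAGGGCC
H4c11: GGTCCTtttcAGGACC
The first form, shared by H1f2 and H2bc8, was the commonest and was found in 24 members. The search took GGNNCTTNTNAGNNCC with a stem of 6 perfect pairs on the transcript strand, and found it in 42 of 61 replication-dependent genes (68.9%). It was found in 0 of 6 variant genes, 1 of 6 germ-cell genes and 12 of 21828 other protein-coding genes (0.055%). Among the 13 replication-dependent genes that could be tested, 10 had it. Several annotated transcripts without a match were shorter than the gene in the table. That of H2bc13 was 381 bases against 473, and that of H4c12 was 312 against 409. Sequence past their annotated ends was not searched, so a missing match does not show that the gene lacks a stem-loop. The annotated transcript of H1f2 goes on for 840 bases past the stem-loop and holds the poly(A) signal AATAAA there, while that of H2ac18 ends 35 bases past it. Of the 42 genes, 20 had an annotated transcript that ran more than 60 bases past the stem-loop. The coding transcripts of H2bc4 and H2bc21 held no match. They were 1156 and 2620 bases long, while the genes have 2303 and 2667 exon bases in the table. Part of the H2bc4 exon bases may therefore not have been searched. H2bc6, of similar length in the table at 2510 bases, had the stem-loop with 1861 bases after it. The median length of the 61 genes in the table was 493 bases.

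Promoters were available for 68 of the 73 members in RefSeq's table on GRCm38.p6, and those of H2bc4, H2bc21, H3c1, H3c7 and H4c14 were not among them. The 250 bases before the transcript start are shown for H1f2, the tested member with the largest change on the log2(FPKM + 1) scale used below, for H1f4, another H1 gene with few reads, for H2ac6, whose window covers the space between it and H2bc4, for H2bc8, for H4c8, and for the variant H3f3a. Capitals mark 4 motifs searched on both strands, which may overlap. The CCAAT box was searched by its letters. The TATA box was searched as TATAAA. The H1 box, an element of linker histone promoters, was searched as AAACACA. The octamer, an element of H2B promoters, was searched as ATTTGCAT. Each line runs 5′ to 3′ on the gene's own strand.
H1f2 (chr13:23738557-23738806, + strand): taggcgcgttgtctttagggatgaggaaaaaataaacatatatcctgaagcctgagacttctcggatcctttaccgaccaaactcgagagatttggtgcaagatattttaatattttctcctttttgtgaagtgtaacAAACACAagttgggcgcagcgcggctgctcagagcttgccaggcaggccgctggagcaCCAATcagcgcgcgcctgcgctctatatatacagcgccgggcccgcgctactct
H1f4 (chr13:23622559-23622808, - strand): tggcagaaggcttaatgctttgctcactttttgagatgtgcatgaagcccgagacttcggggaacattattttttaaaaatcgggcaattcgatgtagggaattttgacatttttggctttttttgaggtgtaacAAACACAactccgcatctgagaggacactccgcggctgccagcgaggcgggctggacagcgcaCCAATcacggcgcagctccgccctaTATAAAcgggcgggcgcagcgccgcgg
H2ac6 (chr13:23683960-23684209, - strand): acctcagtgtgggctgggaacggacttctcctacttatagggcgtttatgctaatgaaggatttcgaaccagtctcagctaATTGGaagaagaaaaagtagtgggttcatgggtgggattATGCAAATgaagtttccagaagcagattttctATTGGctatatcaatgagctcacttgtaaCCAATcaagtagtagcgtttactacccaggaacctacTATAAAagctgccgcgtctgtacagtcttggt
H2bc8 (chr13:23571150-23571399, + strand): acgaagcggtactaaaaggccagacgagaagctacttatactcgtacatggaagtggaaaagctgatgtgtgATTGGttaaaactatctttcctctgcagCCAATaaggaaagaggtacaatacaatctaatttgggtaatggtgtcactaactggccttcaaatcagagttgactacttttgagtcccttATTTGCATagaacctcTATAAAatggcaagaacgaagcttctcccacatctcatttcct
H4c8 (chr13:23530794-23531043, + strand): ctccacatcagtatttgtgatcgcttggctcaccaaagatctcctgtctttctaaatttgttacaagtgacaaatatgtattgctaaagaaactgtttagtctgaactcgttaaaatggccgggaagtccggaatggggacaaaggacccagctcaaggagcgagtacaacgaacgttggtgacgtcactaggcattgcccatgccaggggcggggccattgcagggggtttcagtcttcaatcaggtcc
H3f3a (chr1:180813606-180813855, - strand): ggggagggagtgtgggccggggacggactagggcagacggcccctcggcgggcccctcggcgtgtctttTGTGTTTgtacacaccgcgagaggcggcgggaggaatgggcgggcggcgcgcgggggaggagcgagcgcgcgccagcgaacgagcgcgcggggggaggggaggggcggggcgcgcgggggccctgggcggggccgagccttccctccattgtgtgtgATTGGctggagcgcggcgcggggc
CCAAT stood in the 250 bases of 46 of 56 replication-dependent genes with a promoter (82.1%), against 33.9% of all 32851 promoters. TATAAA stood in 46.4% of the replication-dependent genes and 12.4% of all promoters. The H1 box stood in 4 of 5 replication-dependent H1 genes and 6.25% of all promoters, and the octamer in 6 of 14 H2B genes and 1.60% of all promoters. The octamer also stood in 5 of 16 H2A genes, and windows of paired H2A and H2B genes can overlap. Of the 6 variants, 4 held CCAAT, and 1 each held TATAAA, the H1 box and the octamer. H1f2 and H1f4 both held the H1 box and CCAAT, and the letters of all 4 motifs were missing from the H4c8 window. A match is a match of letters, and a missing one says only that these letters are not in this window.

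The libraries held between 16660998 and 19496632 recovered reads. Levels are FPKM, reads scaled by gene length and by an effective library size. Divided by the recovered reads, that size came to 0.78 for P14 replicate 1, whereas the remaining libraries gave 1.02 to 1.06. P14 replicate 1 stood apart. The sum of 15 epithelial markers was 5617 FPKM there, 134, 766 and 266 FPKM in P14 replicates 2, 3 and 4, and 34.3 to 56.3 FPKM at E17.5, and no epithelial marker was at 0 in any library. The sum of 8 mesenchymal markers was 1100 FPKM in P14 replicate 1 and 3083 to 3430 FPKM in the other 7 libraries. Smooth muscle markers summed to 1485 FPKM in that library, 4104 to 5650 FPKM in the other P14 libraries and 2059 to 2339 FPKM at E17.5. Erythroid markers summed to 1504 to 2205 FPKM at E17.5 and 309 to 492 FPKM at P14. Markers of B and plasma cells summed to 4.33 to 6.27 FPKM at E17.5 and 16.5 to 118 FPKM at P14, and endothelial markers to 293 to 327 FPKM and 87.1 to 183 FPKM, both without overlap. Macrophage markers summed to 83.0 to 90.6 FPKM at E17.5, 109 FPKM in P14 replicate 1 and 32.1 to 47.8 FPKM in P14 replicates 2 to 4. The part of these differences in the histone values was not tested, and the changes of the tested members are given with and without P14 replicate 1. In these bulk libraries a change in the share of a cell type and a change in RNA per cell cannot be told apart.

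A gene was tested where its FPKM reached 1 in at least 4 of the 8 libraries. This left 14044 genes, among them 13 of the 61 replication-dependent members, all 6 variants and none of the germ-cell members. The test was limma on log2(FPKM + 1), P14 against E17.5, with Benjamini-Hochberg adjustment over all 14044 genes and a threshold of 0.05. Fold changes are on this scale, which understates those of low genes. Over all tested genes, 9.72% were called higher and 15.0% lower at P14, and 22.6% and 26.9% without P14 replicate 1. Higher genes made up 39.3% of the calls on FPKM and 25.1% after rescaling to TPM, on which every library has the same sum, which moved the median of all genes from 0.0022 to -0.18.

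The replication-dependent members that could be tested were higher at P14 in 8 cases (H1f2, H2ac18, H2ac19, H2bc4, H2bc8, H2bc21, H3c14 and H4c8) and lower in 1 (H3c3). The other 4 (H2ac23, H3c4, H4c9 and H4c12) did not pass. All 9 calls also passed without P14 replicate 1, and 8 of the 9 passed on TPM. No variant passed in the 8 libraries. The counts are a description, because some genes entered the test mainly through the age at which they were high. H3c14 passed the filter through its P14 libraries alone, which fixed that its ages did not overlap. H4c8 and H3c4 had 4 P14 libraries and 1 E17.5 library at 1 FPKM or more, and H3c3 had 4 E17.5 libraries and 1 P14 library. With every gene above 0 in any library tested instead, 60 replication-dependent members entered and the same 9 were called.

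**Figure D1:**
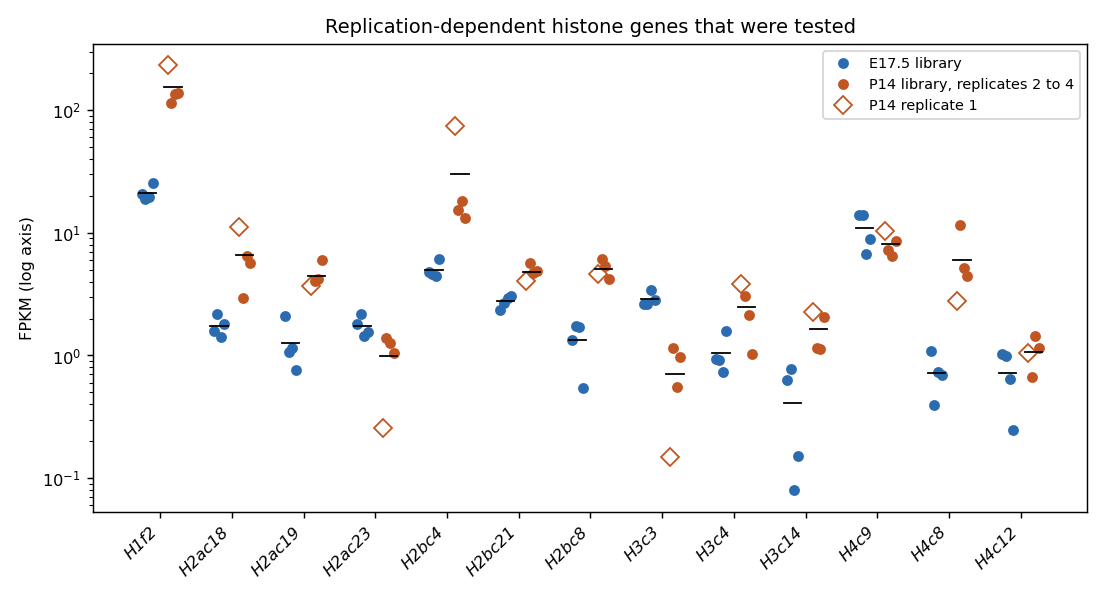
FPKM (log axis) of the 13 tested replication-dependent histone genes in each of 8 libraries, ordered by family and level; lines are the means of 4 libraries. H1f2 lies above every other gene shown at both ages, and P14 replicate 1 (open diamond) is the highest library of H1f2, H2ac18, H2bc4, H3c4 and H3c14 and the lowest of H2ac23 and H3c3.

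H1f2 encodes a linker histone, which binds where DNA enters and leaves the nucleosome. It lies at chr13:23922790-23923514 on GRCm39, on the plus strand. Its level was 20.9, 18.9, 19.6 and 25.7 FPKM in the E17.5 libraries and 232, 114, 137 and 139 FPKM in P14 replicates 1 to 4. Every P14 library was above every E17.5 library, and P14 replicate 1 was 1.79 times the mean of the other P14 libraries. The log2 fold change was 2.77 ± 0.22 (SE; limma adjusted p = 0.000568), and 2.56 without P14 replicate 1 (limma adjusted p = 6.97e-06). The read count behind H1f2 was 238 to 371 in the E17.5 libraries and 1501 to 2364 in the P14 libraries. It shared 5.07% of its 100-base windows with transcripts of other genes. The remaining replication-dependent H1 genes stayed below the filter. H1f3 was the highest of them, at 0.148 to 1.04 FPKM at E17.5 and 0.827 to 1.34 FPKM at P14, which overlap. H1f4, whose promoter is shown above, had 35 reads in all 8 libraries together.

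The H2B genes encode a core histone that pairs with H2A, and all 3 that were tested were higher at P14. H2bc4 (chr13:23868182-23876805, GRCm39, plus strand) had 4.75, 4.58, 4.42 and 6.15 FPKM at E17.5, and 73.8, 15.4, 18.1 and 13.2 FPKM in P14 replicates 1 to 4. The ages did not overlap, and P14 replicate 1 stood at 4.75 times the mean of the other P14 libraries. The log2 fold change was 2.01 ± 0.49 (SE; limma adjusted p = 0.0219) and fell to 1.47 without P14 replicate 1 (limma adjusted p = 8.09e-05). Leaving out any 1 E17.5 library ended the H2bc4 call, with adjusted p between 0.0519 and 0.0657. The gene spans far more genome than its 2303 summed exon bases, and the table does not say which exons the reads fell on.

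H2bc8 (chr13:23755574-23756037) had 1.35, 1.74, 1.70 and 0.541 FPKM at E17.5 and 4.61, 6.15, 5.41 and 4.17 FPKM at P14. The 2 ages were apart, and P14 replicate 1 lay within the range of the other P14 libraries. H2bc8 changed by 1.41 ± 0.21 (SE; limma adjusted p = 0.0037), and by 1.44 without P14 replicate 1. These values rest on 5 to 52 reads per library, and 44.9% of the gene's 100-base windows recur in other genes. H2bc21 (chr3:96128388-96131054), which encodes an H2B known from olfactory neurons, had 2.36, 2.70, 2.97 and 3.07 FPKM at E17.5 and 4.01, 5.68, 4.70 and 4.92 FPKM at P14. Its ages did not overlap either, by a smaller step of 0.62 ± 0.13 (SE; limma adjusted p = 0.0108), or 0.69 without P14 replicate 1, and no 100-base window of H2bc21 recurs elsewhere. On TPM the H2bc21 call was lost, with an adjusted p of 0.0921.

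H2A and H2B genes of the clusters often lie head to head with a shared promoter between them. The table holds 12 such pairs among the members, with both genes reading outward. H2bc4 lies 239 bases from H2ac6, and over all 8 libraries H2bc4 had 5256 reads and H2ac6 had 44. H2bc21 had 1471 reads and H2ac20, 191 bases away, had 6. H2bc8 had 212 reads and H2ac8, 179 bases away, had 60. H2bc4 and H2bc21 are 2303 and 2667 bases long in the table, so part of their excess in reads goes with length. Per length the order held for H2bc4 and H2ac6: H2ac6 lay between 0 and 1.03 FPKM in every library, below the lowest H2bc4 value of 4.42 FPKM. It also held for H2bc21, with a lowest value of 2.36 FPKM, and H2ac20, with a highest of 0.352 FPKM. For H2bc8 and H2ac8 it did not hold in every library. In E17.5 replicate 4 H2bc8 had 0.541 FPKM and H2ac8 had 0.900 FPKM. The windows printed for H2ac6 and H2bc8 cover the spaces between H2ac6 and H2bc4 and between H2ac8 and H2bc8.

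Among the H2A genes, H2ac18 and H2ac19 are neighbours on chromosome 3. H2ac18 (chr3:96152813-96153368) had 1.59, 2.17, 1.42 and 1.81 FPKM at E17.5 and 11.2, 2.96, 6.53 and 5.64 FPKM at P14. The ages were apart, with P14 replicate 1 at 2.21 times the mean of the other P14 libraries, and the change was 1.36 ± 0.31 (SE; limma adjusted p = 0.0174), or 1.09 without that library. H2ac18 was not called without E17.5 replicate 3 (adjusted p = 0.0572). H2ac19 (chr3:96147095-96147690) had 2.10, 1.06, 1.15 and 0.758 FPKM at E17.5 and 3.71, 4.05, 4.21 and 5.96 FPKM at P14, a change of 1.29 ± 0.20 (SE; limma adjusted p = 0.00452), or 1.36 without P14 replicate 1. In H2ac19 the library P14 replicate 1 was the lowest of its age and still above all E17.5 libraries. H2ac18 and H2ac19 share 88.3% and 100% of their 100-base windows with other genes, so how reads were split between them is uncertain. H2ac23, on chromosome 13, had 1.43 to 2.19 FPKM at E17.5 and 0.258 to 1.39 FPKM at P14. Its ages did not overlap but the difference of -0.50, or -0.29 without P14 replicate 1, did not pass (limma adjusted p 0.123 and 0.0846), and 92.7% of its windows recur elsewhere.

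The H3 genes went in both directions. H3c3 (chr13:23929025-23929504) had 2.61, 2.64, 3.41 and 2.82 FPKM at E17.5 and 0.149, 1.14, 0.556 and 0.980 FPKM at P14. All E17.5 libraries were above all P14 libraries, and H3c3 fell by 1.22 ± 0.20 on the log2 scale (SE; limma adjusted p = 0.0053). Without P14 replicate 1, whose value rests on 1 read, the change was -1.04 (limma adjusted p = 0.000528). H3c14 (chr3:96154001-96154664) had 0.628, 0.780, 0.0794 and 0.151 FPKM at E17.5 and 2.25, 1.16, 1.13 and 2.05 FPKM at P14. It rose by 0.91 ± 0.22 (SE; limma adjusted p = 0.0222), or by 0.81 without P14 replicate 1, on 1 to 26 reads per library, and every 100-base window of H3c14 recurs in another gene. Without E17.5 replicate 3, E17.5 replicate 4 or P14 replicate 4 the H3c14 call was lost, with adjusted p from 0.0581 to 0.0668. H3c4 had 0.732 to 1.59 FPKM at E17.5 and 1.04 to 3.82 FPKM at P14, which overlap, and of the alternatives tried it passed only when P14 replicate 4 was left out (limma adjusted p 0.0857 with all libraries, 0.0237 without it). Its difference was 0.72 in all libraries and 0.55 without P14 replicate 1.

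Among the H4 genes, H4c8 (chr13:23715214-23715648) had 1.08, 0.397, 0.727 and 0.693 FPKM at E17.5 and 2.79, 11.5, 5.15 and 4.44 FPKM at P14. The ages did not overlap, and P14 replicate 1 was the lowest P14 library. H4c8 rose by 1.89 ± 0.34 (SE; limma adjusted p = 0.00718), and by 2.13 without P14 replicate 1 (limma adjusted p = 0.000764). It rests on 3 to 91 reads per library and shares 38.5% of its windows. H4c9 was the most abundant H4 gene, with 6.67 to 14.1 FPKM at E17.5 and 6.49 to 10.4 FPKM at P14. Its ages overlapped, and it differed by -0.34 (limma adjusted p = 0.349), or -0.45 without P14 replicate 1 (0.173). H4c12 had 0.246 to 1.02 FPKM at E17.5 and 0.670 to 1.44 FPKM at P14, which overlap, and differed by 0.28 with and without P14 replicate 1 (limma adjusted p 0.303 and 0.281).

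A count by overlap, made on the same values, differed from the calls in 1 gene. Of the 13 tested replication-dependent genes, 8 had all P14 libraries above all E17.5 libraries, against 15.6% of all tested genes. The 8 include H3c14, whose separation the filter fixed, and H4c8, which entered mainly through P14, so this count too is a description. In 2, H3c3 and H2ac23, all P14 libraries were below, against 20.4% of all tested genes. By chromosome, all 4 tested genes of the chromosome 3 cluster, H3c14 among them, were called higher, and 2 of the 4 without E17.5 replicate 3. On chromosome 13, 4 of 9 tested genes were called higher and 1 lower. Over all tested genes the shares were 9.72% higher and 15.0% lower, and the counts by chromosome were the same without P14 replicate 1. By family, the called genes were 1 of 1 for H1, 2 of 3 for H2A, 3 of 3 for H2B, 2 of 3 for H3 in opposite directions, and 1 of 3 for H4.

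The other 48 replication-dependent members were below the filter. Their mean level over the 8 libraries ran from 0 to 1.62 FPKM with a median of 0.307 FPKM, and 32 of them had a mean under 0.5 FPKM. No library held more than 34 reads of any of them. The highest was H4c11, which was not tested because 3 libraries reached 1 FPKM. It had 0.616 to 0.873 FPKM at E17.5, 4.28, 3.15 and 2.22 FPKM in P14 replicates 2, 3 and 4, and 0.169 FPKM, from 1 read, in P14 replicate 1. The highest of the other families were H2ac7 at 0 to 3.49 FPKM, H2bc11 at 0 to 1.92 FPKM and H3c8 at 0.145 to 2.56 FPKM over the 8 libraries, with overlapping ages in each. H4c6 had no read in any library, which allows up to 3 reads per library. H1f7, H2ac1 and H2bc1, germ-cell genes, likewise had none, and the other 3 germ-cell members had at most 3 reads in a library.

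**Figure D2:**
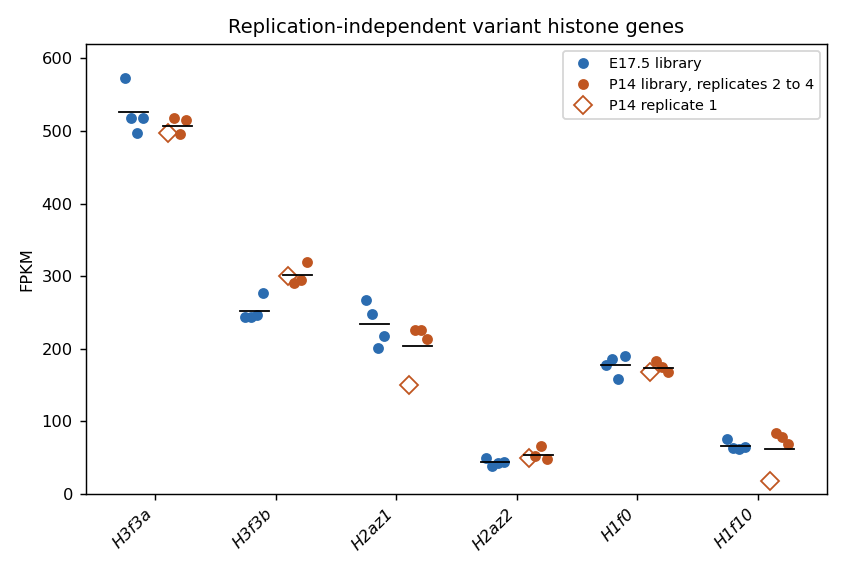
FPKM (linear axis) of the 6 variant histone genes in each of 8 libraries; lines are the means of 4 libraries. The ages overlap for every gene but H3f3b, and P14 replicate 1 (open diamond) is far below the other libraries for H1f10 at 16.9 FPKM.

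By mean FPKM at each age, every variant stood above every replication-dependent gene other than H1f2, and at P14 the mean of H1f2 (155 FPKM) was also above those of H2az2 (53.7 FPKM) and H1f10 (62.0 FPKM). In P14 replicate 1 alone H2bc4 stood above those 2 variants. H3f3a and H3f3b encode the same H3.3 protein, which replaces H3 outside S phase. H3f3a (chr1:180630125-180641170) was the highest member, with 574, 518, 497 and 518 FPKM at E17.5 and 497, 518, 495 and 515 FPKM at P14. Its ages overlapped and it differed by -0.06 ± 0.08 (SE; limma adjusted p = 0.654), or -0.05 without P14 replicate 1. H3f3b (chr11:115912787-115921313) had 243, 243, 246 and 276 FPKM at E17.5 and 300, 291, 295 and 319 FPKM at P14. All P14 libraries of H3f3b were above all E17.5 libraries, by 0.26 ± 0.09 (SE), which did not pass in the 8 libraries (limma adjusted p = 0.0651). The H3f3b difference passed without P14 replicate 1 (limma adjusted p = 0.0244) and under median-of-ratios scaling (0.0468), and on TPM it shrank to 0.07 (0.766). H3f3b overlaps the gene Unk on the opposite strand by 197 bases, and reads of the pair cannot be told apart if they were counted without regard to strand, which the sources used here do not state. The share of H3f3b in the summed level of H3f3a and H3f3b, which no library scaling changes, was 29.8% to 34.8% at E17.5 and 35.9% to 38.3% at P14, without overlap.

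H2az1 and H2az2 encode H2A.Z proteins, found at promoters and enhancers. H2az1 (chr3:137570248-137572683) had 267, 248, 201 and 217 FPKM at E17.5 and 150, 226, 226 and 213 FPKM at P14. The ages overlapped, with P14 replicate 1 the lowest library, and the difference was -0.21 (limma adjusted p = 0.383), or -0.07 without that library (0.628). H2az2 (chr11:6377226-6394511) had 49.4, 38.6, 41.6 and 43.8 FPKM at E17.5 and 48.7, 51.8, 65.9 and 48.3 FPKM at P14, with overlap. It differed by 0.30 (limma adjusted p = 0.141), or by 0.34 without P14 replicate 1 (0.0501). The linker variant H1f0 (chr15:78912412-78914704), known from cells that have stopped dividing, had 158 to 189 FPKM at E17.5 and 167 to 182 FPKM at P14 and differed by -0.03 (limma adjusted p = 0.825), or -0.02 without P14 replicate 1 (0.872). The linker variant H1f10 (chr6:87957403-87958464) had 74.8, 63.0, 62.0 and 64.0 FPKM at E17.5 and 16.9, 83.8, 78.5 and 68.7 FPKM at P14. H1f10 differed by -0.31 ± 0.47 (SE; limma adjusted p = 0.655) with P14 replicate 1 and by 0.22 ± 0.10 (SE; limma adjusted p = 0.0943) without it. For the 6 variants as a whole limma called 0, with 1 (H3f3b) at an unadjusted p under 0.05, and limma-voom on recovered reads also called 0.

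**Figure D3:**
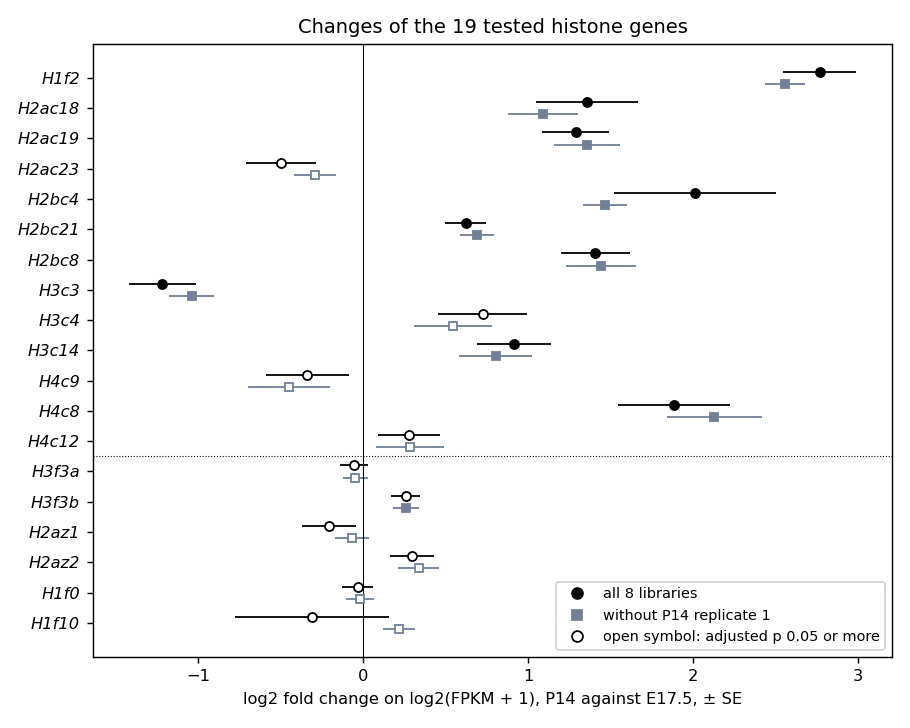
log2 fold change of log2(FPKM + 1), P14 against E17.5, with its SE, for the 13 replication-dependent (above the dotted line) and 6 variant genes, from all 8 libraries (circles) and without P14 replicate 1 (squares); filled symbols passed an adjusted p of 0.05. Changes run from 2.77 for H1f2 to -1.22 for H3c3 among the replication-dependent genes and from -0.31 to 0.30 among the variants, and H1f10 changes sign without P14 replicate 1.

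Summed over the 61 replication-dependent genes, the level was 68.7, 72.6, 58.7 and 73.5 FPKM at E17.5 and 367, 206, 211 and 208 FPKM in P14 replicates 1 to 4. The 6 variants summed to 1384, 1296, 1206 and 1309 FPKM at E17.5 and 1181, 1352, 1336 and 1331 FPKM at P14. The first sum was apart between the ages and the second overlapped. The replication-dependent sum was 4.87% to 5.62% of the variant sum at E17.5, 15.2% to 15.8% in P14 replicates 2 to 4 and 31.1% in P14 replicate 1. A library scaling divides both sums alike, so the ratio cannot change with it. No p is given for these sums, because the members were chosen with results known.

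H1f2 and H2bc4 held 32.4% to 43.3% of the replication-dependent sum at E17.5 and 62.7% to 83.4% at P14. Without them the other 59 genes summed to 34.7 to 49.1 FPKM at E17.5 and 55.5 to 76.6 FPKM at P14, which were apart, but on TPM these ranges became 104 to 145 and 121 to 209 and overlapped. The overlap on TPM was that of P14 replicate 1, and without it the P14 range was 154 to 209. The 48 genes below the filter, which are among these 59, summed to 13.5 to 19.6 FPKM at E17.5 and 15.6 to 31.7 FPKM at P14. Their ages overlapped, also on TPM and without P14 replicate 1. By family, the H1 sum was 20.2 to 27.2 FPKM at E17.5 and 116 to 234 FPKM at P14, and the H2B sum 12.8 to 15.8 FPKM and 26.4 to 85.5 FPKM. The H2A sum was 7.73 to 10.5 FPKM at E17.5 and 15.3 to 19.7 FPKM at P14. The H3 sums overlapped, at 6.91 to 8.39 and 6.38 to 12.3 FPKM, and so did the H4 sums, at 10.3 to 21.3 and 18.1 to 29.2 FPKM. The replication-dependent H3 genes together stood at 0.846% to 1.10% of the H3.3 genes at E17.5 and 0.782% to 1.53% at P14. H1f2 stood at 10.2% to 13.6% of H1f0 at E17.5, 62.3% to 83.3% in P14 replicates 2 to 4 and 138% in P14 replicate 1.

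**Figure D4:**
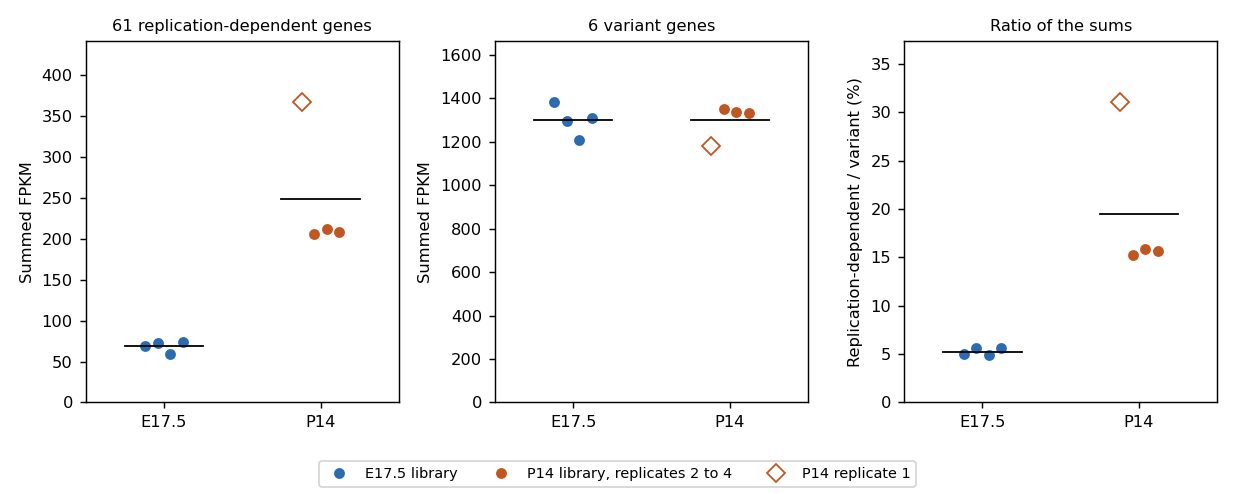
Summed FPKM of the 61 replication-dependent genes, of the 6 variants, and the ratio of the sums in percent, in each of 8 libraries; lines are means of 4 libraries and all axes start at 0. The replication-dependent sum and the ratio are higher in every P14 library, P14 replicate 1 is the highest at 367 FPKM and 31.1%, and the variant sums overlap.

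H1f2, H2ac18, H2bc4, H3c4 and H3c14 stood highest in P14 replicate 1, at 1.79, 2.21, 4.75, 1.85 and 1.56 times the mean of the other P14 libraries. H1f2 and H2bc4 were also higher in P14 replicates 2, 3 and 4, whose epithelial sums were 134, 766 and 266 FPKM, than in any E17.5 library. Among these 3 libraries H2bc4 had 15.4, 18.1 and 13.2 FPKM and H1f2 had 114, 137 and 139 FPKM. H2bc8, H2ac19, H4c8 and H2bc21 were not highest in P14 replicate 1. Over the tested genes the median ratio of P14 replicate 1 to the mean of the other P14 libraries was 14.9 for the epithelial markers, 0.367 for the mesenchymal markers, 0.964 for the replication-dependent histones, 0.921 for the variants and 1.02 for all genes. Lgr5, Olfm4, Ascl2 and Smoc2, taken as markers of crypt stem and dividing epithelium, summed to 60.7 to 70.2 FPKM at E17.5. In P14 replicates 1 to 4 they summed to 133, 150, 217 and 166 FPKM, and 2 of these 4 genes were tested. P14 replicate 1, the highest for the epithelial markers, was the lowest P14 library of this sum. Over the 2 tested genes, however, the median ratio of P14 replicate 1 to the mean of the other P14 libraries was 1.42. The genes of this list therefore did not all follow its sum. Which cells gave this sum was not tested. The part of the cell types in the histone changes was not tested.

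**Figure D5:**
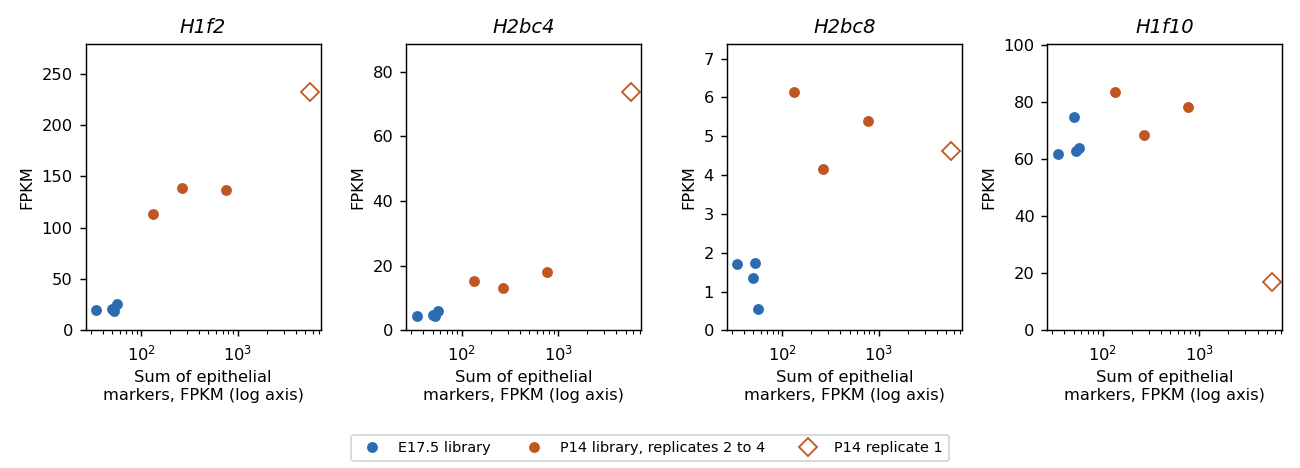
FPKM of H1f2, H2bc4, H2bc8 and H1f10 (linear axes from 0) against the summed FPKM of 15 epithelial markers (log axis), 1 point per library. P14 replicate 1, at 5617 FPKM of markers, is highest for H1f2 and H2bc4, within the other P14 libraries for H2bc8 and lowest for H1f10.

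The machinery that transcribes histone genes and trims their transcripts, and the genes of S phase, were taken as lists. Of 26 genes of S phase and division, all tested, 16 fell at P14 and none rose (limma adjusted p under 0.05), with a median log2 fold change of -0.58 against 0.0022 for all genes. The share of all tested genes that fell was 15.0%, and 26.9% without P14 replicate 1, where 20 of the 26 fell. Leaving out any other library left 8 to 15, the fewest without E17.5 replicate 3. On TPM 12 fell, and with no filter on low values 10 fell. The 15.0% is the share on FPKM with the filter and does not apply to these counts. The cyclin gene Ccnb1 had 38.3, 35.2, 40.5 and 46.4 FPKM at E17.5 and 7.85, 15.7, 16.8 and 11.8 FPKM at P14, a change of -1.59. Top2a, a topoisomerase of dividing cells, changed by -1.45, the proliferation marker Mki67 by -1.13 and the kinase gene Cdk1 by -1.06. These changes without P14 replicate 1 were -1.39 for Ccnb1, -1.25 for Top2a, -0.91 for Mki67 and -0.82 for Cdk1. Pcna, the replication clamp and the highest gene of the list, had 125 to 154 FPKM at E17.5 and 108 to 120 FPKM at P14, and its difference of -0.28 did not pass (limma adjusted p = 0.0846), while it passed without P14 replicate 1 at -0.27 (0.0459). In this list P14 replicate 1 stood at a median of 0.549 times the mean of replicates 2 to 4.

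Of 29 genes of histone gene transcription and pre-mRNA processing, 27 were tested, 9 fell and 1 rose, with a median of -0.17, against 15.0% lower and 9.72% higher among all tested genes. Without P14 replicate 1, 14 fell and 1 rose, against 26.9% and 22.6%. Leaving out any other library left 5 to 9 that fell, the fewest without E17.5 replicate 3. Slbp, which binds the stem-loops printed above, had 41.6, 47.2, 46.3 and 50.5 FPKM at E17.5 and 29.1, 31.1, 28.5 and 31.3 FPKM at P14. The ages of Slbp were apart, at -0.61 ± 0.10 (SE; limma adjusted p = 0.00447), and P14 replicate 1 lay within the other P14 libraries. Eri1, an exonuclease that trims histone transcripts, changed by -0.90, and Cstf2, a cleavage factor, by -0.64. Mif4gd, a partner of Slbp in translation, rose by 1.02 ± 0.22 (SE; limma adjusted p = 0.0146), from 11.3 ± 0.613 FPKM (SD, n = 4) to 24.9 ± 8.65 (SD, n = 4). Mif4gd changed by 0.82 without P14 replicate 1.

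Of 34 histone chaperones, which carry histones to and from DNA, 14 fell and none rose, with a median of -0.28, against 15.0% lower among all tested genes. Without P14 replicate 1, 19 fell, against 26.9%. Leaving out any other library left 10 to 13. Npm1 changed by -0.98, from 154 to 78.0 FPKM in the mean, Asf1b and Nap1l1 by -0.95 each, and Hjurp, the chaperone of the centromere histone, by -0.94. They changed without P14 replicate 1 by -1.02 (Npm1), -0.88 (Asf1b), -0.82 (Nap1l1) and -0.82 (Hjurp). Of 10 further histone variants 5 were tested. H2aj rose by 0.97 (limma adjusted p = 0.0382) and the centromere histone gene Cenpa fell by 0.94 on the log2 scale (limma adjusted p = 0.0403). The changes without P14 replicate 1 were 0.71 for H2aj and -0.65 for Cenpa. Both calls were lost without any 1 of the E17.5 libraries, or without P14 replicate 3 or 4, with adjusted p up to 0.104 for H2aj and 0.0963 for Cenpa, and both without the filter on low values; Cenpa also missed the threshold on TPM (0.0576). H2aj had 38.9 FPKM in P14 replicate 1 and 16.5 to 20.1 in the other P14 libraries. H2ax is listed at 0 in all 8 libraries, and its model lies wholly inside that of Dpagt1 on the same strand.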

How the data were processed

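RNA of 8 libraries was measured, 4 per age, grouped by the sample titles. How RNA was selected before library making is not stated. The submitters' processing notes list CASAVA, fastp, HISAT2, featureCounts, DESeq2 1.20.0 and GRCm39 but give no roles. They do not state how strand and reads with several matches were treated, so members with shared sequence are uncertain. The deposited values are FPKM per gene. FPKM times gene length gave whole reads for 100% of values (tolerance 1e-06), which gave the depth, the read numbers and a limma-voom alternative. Genes at 1 FPKM or more in at least 4 libraries were tested on log2(FPKM + 1) with limma 3.58.1 (R 4.3.3), with intensity trend and robust moderation, two-sided, and Benjamini-Hochberg adjustment over all tested genes. The script was tested on simulated data. Counting intervals cover counting error only.

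Alternatives were a pseudocount of 0.1, no filter, TPM, median-of-ratios scaling, no moderation by trend, limma-voom, a replicate block, and each library left out. Leaving out P14 replicate 1 together with TPM was chosen after seeing the data. The members and gene lists were chosen with earlier results of these data known. Named are all variants, called members, the highest and most changed tested member of a family, the highest member below the filter in a family, and up to 4 called genes and the highest gene of a list. H2ac23, H3c4, H4c12, H1f4, H2bc6, H2ax, the members without reads, and H2ac6, H2ac8 and H2ac20, partners of tested genes, were named after their values were seen. Sequences are from GENCODE M21 and RefSeq; a window counts as shared where its 100 bases occur in a transcript of another gene. Gene coordinates are the table's, on GRCm39.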

Additional observations from a re-analysis of the deposited data

Results flagged for a closer look

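In a group of 4 libraries a library was marked where its gap to the nearest other, divided by the range, was above Dixon's 95% critical value for 4 samples. Of 108 groups examined, 17 were marked, and chance marks about 1 in 20. P14 replicate 1 was marked among the P14 libraries in 10 of them. It was high for H2bc4 at 73.8 FPKM and H2aj at 38.9 FPKM. It was low for H2az1 at 149.9 FPKM and Top2a at 17.4 FPKM. The sums marked in the same library were 367 FPKM for the replication-dependent genes, 306 FPKM for H1f2 with H2bc4, 85.5 FPKM for the replication-dependent H2B genes and 1181 FPKM for the variants. So were the ratio of replication-dependent to variant genes at 31.1% and that ratio for H2A at 9.91%.

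Other libraries were marked in 7 groups. P14 replicate 3 was low for Cstf2 at 6.98 FPKM. P14 replicate 2 was high for the untested replication-dependent genes together, at 31.7 FPKM, and for the H4 genes, at 29.2 FPKM. At E17.5, replicate 1 was high for H1f10 at 74.8 FPKM, replicate 4 was high for H3f3b at 276 FPKM and low for Asf1b at 11.02 FPKM, and replicate 3 was low for the variant H1 genes together at 219.8 FPKM.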

How the results depend on the processing

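The 19 tested members gave 304 values under 16 alternatives: 286 kept direction and side of the threshold, 12 lost the call, 3 gained it and 3 changed sign, all of genes that did not pass. H1f10 ran from -0.53 to 0.22 over the libraries left out, turning to 0.22 without P14 replicate 1, and to 0.15 without it and on TPM. H1f0 turned to 0.00045 under median-of-ratios scaling. That scaling called 1 variant, H3f3b, as did leaving out P14 replicate 1. On TPM 899 of all genes rose, against 1365, and the log2 difference of the variant sum was -0.19, against 0.00107; the cause was not tested.

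Same-numbered libraries did not deviate together: the correlations of their deviations were -0.033, 0.0095, -0.064 and -0.049. No pairing by number was seen, which does not exclude a shared preparation. With the replicate number as a block, 1744 genes were called (695 up, 1049 down) against 3473 (1365 up, 2108 down), and of the members 5 were called higher and 1 lower; H2ac18, H2bc4 and H3c14 were not called.

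Leaving out each library in turn gave 1735 to 6958 genes called, 617 to 3176 of them higher and 1118 to 3782 lower. The members called numbered 6 to 10, 5 to 9 of them higher, the replication-dependent genes 6 to 9, 5 to 8 of them higher, and the variants 0 to 1. Without P14 replicate 1 and on TPM, 7128 genes were called, 2741 higher and 4387 lower, with 8 members higher and 1 lower. Depth limits the low members most: outside H1f2, H2bc4, H2bc21 and H4c9, no tested replication-dependent gene had more than 91 reads in a library.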
